A study of Mus musculus with 9 samples.

Results

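Sterol and fatty acid metabolism genes were examined in mouse T cells under Th17 polarization, a culture that turns naive CD4 T cells into helper cells that secrete IL-17. The set was chosen by gene symbol and has 40 genes: 18 enzymes of sterol synthesis, 5 regulators of sterol synthesis, 8 genes for sterol uptake, transport, efflux and oxidation, 8 for fatty acid synthesis, and Cd5l. Of these, 36 were measured by a probe set with a single gene symbol, among 22180 such genes on the array. Where a gene had several probe sets, the one with the highest mean was used. The probe sets of Idi1 and Scd2 carry a second symbol and were left out, and Acat2 and Soat1 were not analysed here, which left 16 enzymes of sterol synthesis, 7 uptake and efflux genes and 7 genes for fatty acid synthesis.

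The 9 cultures compared were of SRG3-deficient cells (labelled SRG3 cKO), RORγt-deficient cells (RORγt KO) and wild-type cells (WT), each genotype on 3 arrays. The Smarcc1 gene encodes SRG3, a scaffold of the nucleosome remodeller Swi/Snf, and RORγt is a nuclear receptor needed for the Th17 fate. In every group naive CD4+CD25-CD44lowCD62Lhigh spleen cells were stimulated for 60 h on plates coated with anti-CD3 and anti-CD28, both at 10 µg/ml. The medium held TGF-β1 at 1 ng/ml, IL-6 at 30 µg/ml as the labels write it, and neutralizing anti-IL-4 and anti-IFN-γ, both at 2 µg/ml. The strain, age and sex of the mice, how and in which cells SRG3 was deleted, and whether a replicate is a separate mouse or a separate culture are not given in the sources used here. The labels call the 3 arrays of each genotype biological replicates. P-values therefore measure the spread between these arrays, which may not be that between mice.

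Cells make cholesterol from acetyl-CoA through mevalonate and squalene. When membrane sterol is low, SCAP carries the SREBP transcription factors to the Golgi for activation and the synthesis genes are induced together; when sterol is high, INSIG proteins hold SCAP back, and oxysterols activate LXR, which induces the efflux pumps ABCA1 and ABCG1. Intermediates of cholesterol synthesis can bind RORγt as ligands, CD5L is known to limit the supply of such ligands in mouse Th17 cells, and fatty acid synthesis through acetyl-CoA carboxylase is known to favour Th17 over regulatory T cell differentiation.

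Levels are log2 probe set intensities as deposited. A difference of 1 between log2 levels is a doubling of intensity, and levels of different genes are not comparable. Array medians lay between 7.12 and 7.14. Smarcc1 lay at 8.47, 8.79 and 8.62 in the SRG3 cKO arrays, against 10.13, 10.32 and 10.39 in the WT arrays, while the transcript removed in RORγt KO cells was not analysed here. The 7 measured T cell markers averaged 10.77 to 10.87 per array in SRG3 cKO, 10.75 to 10.82 in RORγt KO and 10.63 to 10.72 in WT arrays. SRG3 cKO array 1 (3.98, against -3.27 and -2.06), RORγt KO array 3 (3.22, against 9.82 and 12) and WT array 1 (-1.38, against -10.5 and -11.8) stood apart from their groups on the first principal component of all genes, which held 28.8% of the variance. Groups were compared with limma in a single fit of all 9 arrays. A gene is said to rise or fall where its p-value, adjusted by the Benjamini-Hochberg method over all 22180 genes, was below 0.05. Intervals are 95% confidence intervals.

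The promoters of the 2 genes that changed in both knockouts, Npc2 and Cd5l, and that of Hmgcs1, an enzyme gene of the sterol synthesis group, are printed here because they show the letters that were searched. Each is the 250 bases before the RefSeq start site, 5′ to 3′ on the gene's strand, in build GRCm38.p6. Capitals mark matches to the sterol regulatory element TCACNCCAC, which SREBPs bind, to the NF-Y box CCAAT, or to the reverse complement of either. The Cd5l window is chr3:87357631-87357880 (+ strand), the Npc2 window chr12:84773113-84773362 (- strand) and the Hmgcs1 window chr13:119690101-119690350 (+ strand).
Cd5l: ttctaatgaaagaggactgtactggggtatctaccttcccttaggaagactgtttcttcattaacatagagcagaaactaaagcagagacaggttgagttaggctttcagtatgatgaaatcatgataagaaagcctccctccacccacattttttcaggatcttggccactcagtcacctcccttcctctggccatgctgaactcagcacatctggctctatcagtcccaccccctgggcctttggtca
Npc2: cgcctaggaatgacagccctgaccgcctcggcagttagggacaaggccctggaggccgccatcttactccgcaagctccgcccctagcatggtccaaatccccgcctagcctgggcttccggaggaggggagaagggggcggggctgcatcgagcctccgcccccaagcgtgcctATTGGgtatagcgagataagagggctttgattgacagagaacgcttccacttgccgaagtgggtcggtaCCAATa
Hmgcs1: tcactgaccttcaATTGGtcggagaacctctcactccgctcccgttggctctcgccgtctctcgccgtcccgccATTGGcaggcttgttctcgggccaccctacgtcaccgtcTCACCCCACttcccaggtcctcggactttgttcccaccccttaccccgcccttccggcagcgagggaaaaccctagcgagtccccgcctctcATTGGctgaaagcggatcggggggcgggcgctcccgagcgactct

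The Hmgcs1 window holds a sterol regulatory element at bases -137 to -129 from the start and 3 NF-Y boxes, the Npc2 window 2 NF-Y boxes, and the Cd5l window no match. RefSeq windows were at hand for 28 of the 36 genes. The NF-Y box occurred in a window of all 13 sterol synthesis genes with one, of 4 of 5 regulators, 2 of 4 uptake and efflux genes and 1 of 5 fatty acid synthesis genes, against 37.5% of all 27025 genes with windows of this length. The sterol regulatory element in these letters occurred in Hmgcs1 alone of the 28 genes, against 1.22% of all genes. The core of the ROR element, TAGGTCA or TGGGTCA on either strand, occurred in 3 of the 28, namely Mvk, Dhcr7 and Insig2, against 6.15% of all genes. The LXR element, a direct repeat of the nuclear receptor core spaced by any 4 bases and searched on either strand, occurred in none of the 28 and in 0.0148% of all genes. A run this rare would be missing from almost any 28 genes, so its absence says nothing about this set. A match is a run of letters and was not tested for binding.

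Of the 36 genes, 1 rose and 1 fell in SRG3 cKO against WT cells, and the same count held in RORγt KO against WT cells. Among all genes 0.523% changed in SRG3 cKO cells (0.28% rose and 0.243% fell) and 1.04% changed in RORγt KO cells (0.694% rose and 0.343% fell). In both knockouts the riser was Npc2, a lysosomal cholesterol carrier, and the faller was Cd5l, a secreted protein that regulates lipid metabolism; both comparisons use the same WT arrays. None of the 36 passed between SRG3 cKO and RORγt KO cells, where 1.28% of all genes did (0.595% higher and 0.681% lower in SRG3 cKO) and where 5 of the 36 had an unadjusted p below 0.05, as did 11.1% of all genes. Arrays numbered alike in SRG3 cKO and WT deviated together, and with the number as a block 195 genes changed between those groups in place of 116, with Npc2 and Cd5l still the only ones of the set.

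**Figure D1:**
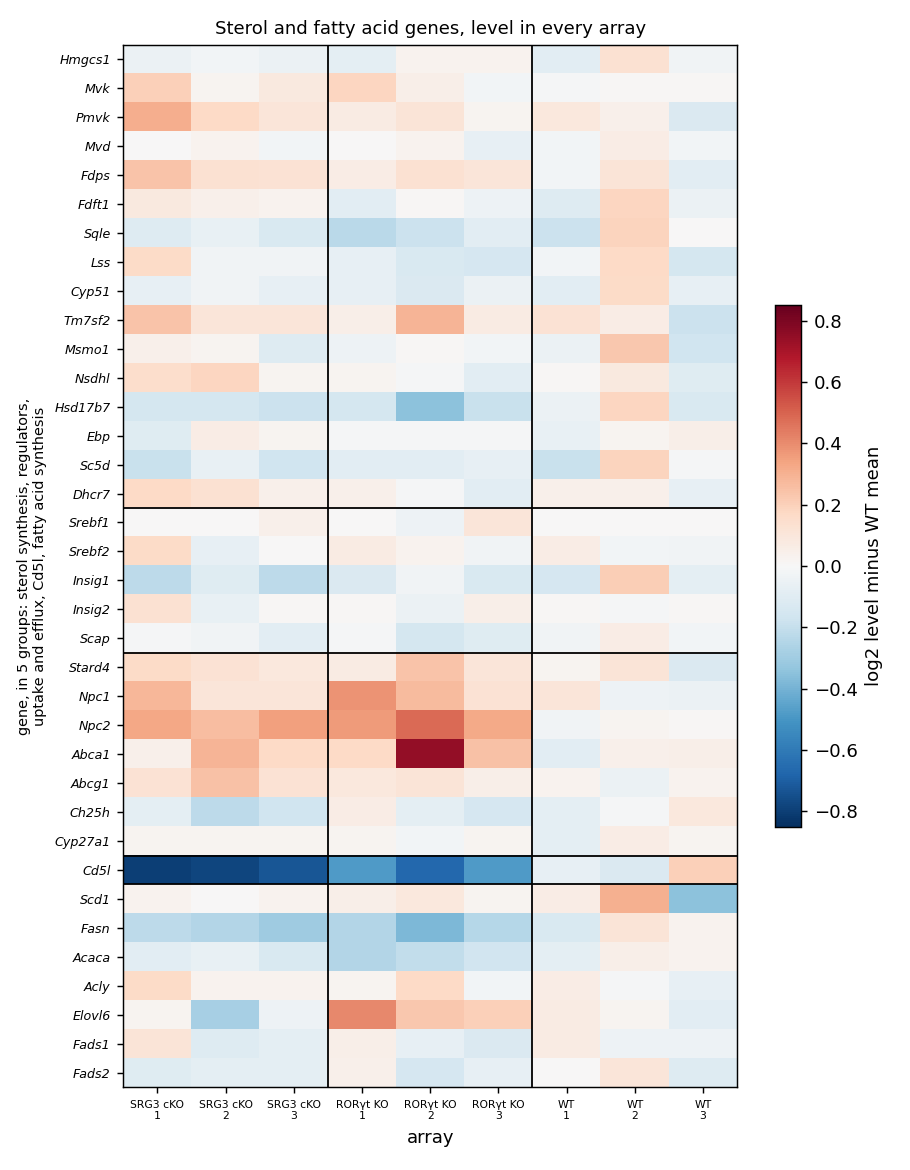
The 36 measured genes (rows, in their 5 groups) in each of the 9 arrays (columns), coloured by log2 level minus the mean of the WT arrays. Cd5l is lower and Npc2 higher in all 6 knockout arrays, and many sterol synthesis genes are higher in WT array 2 than in the other WT arrays.

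Sterol synthesis genes lay close to their WT levels. None of the 16 enzymes passed in SRG3 cKO cells, where 8 lay above 0 and 8 below (median log2 change 0.01, range -0.16 to 0.19, against a median of -0.006 over all genes). None passed in RORγt KO cells either, where 4 lay above 0 and 12 below (median -0.02, range -0.23 to 0.14, against -0.003). By unadjusted p below 0.05 there were 2 of 16 in SRG3 cKO cells, against 11.2% of all genes, and 1 of 16 in RORγt KO cells, against 12.7%. Between SRG3 cKO and RORγt KO cells, again none passed, with 13 above 0 and 3 below (median 0.05, range -0.06 to 0.15, against -0.001). There, 2 of 16 had an unadjusted p below 0.05, against 11.1% of all genes.

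In the mevalonate arm, Pmvk, which encodes phosphomevalonate kinase, lay at 9.52, 9.38 and 9.31 in SRG3 cKO arrays, 9.28, 9.32 and 9.23 in RORγt KO arrays, and 9.30, 9.25 and 9.09 in WT arrays. Every SRG3 cKO array was above every WT array, but the difference of 0.19 (SE 0.07, interval 0.04 to 0.34, limma adjusted p = 0.34) did not pass, and RORγt KO arrays overlapped WT arrays. Fdps, for the enzyme that makes farnesyl diphosphate, lay at 10.31, 10.20 and 10.19 in SRG3 cKO arrays, 10.13, 10.20 and 10.17 in RORγt KO arrays and 10.05, 10.18 and 9.98 in WT arrays. SRG3 cKO arrays were again above WT arrays, by 0.17 (SE 0.06, interval 0.04 to 0.29, adjusted p = 0.317), and RORγt KO arrays overlapped them at 0.10 (adjusted p = 0.519). Together with Mvk, mevalonate kinase, these were the 3 of 16 enzymes whose SRG3 cKO arrays all lay above the WT arrays, a pattern met by 7.04% of all genes; the pattern of all arrays lower was met by 1 of 16 and by 6.56% of all genes. Hmgcs1, for a synthase of this arm and whose promoter is printed above, was at -0.05 in SRG3 cKO (interval -0.18 to 0.09) and -0.01 in RORγt KO (interval -0.14 to 0.12).

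Past farnesyl diphosphate, Sqle, which encodes squalene epoxidase, lay at 9.62, 9.67 and 9.60 in SRG3 cKO arrays, 9.50, 9.55 and 9.64 in RORγt KO arrays and 9.55, 9.92 and 9.73 in WT arrays. The groups overlapped, with differences of -0.10 (interval -0.29 to 0.08) in SRG3 cKO and -0.17 (interval -0.36 to 0.01) in RORγt KO. Lss, for lanosterol synthase, lay at 9.60, 9.41 and 9.41 in SRG3 cKO arrays, 9.37, 9.31 and 9.30 in RORγt KO arrays and 9.42, 9.61 and 9.29 in WT arrays. Its SRG3 cKO arrays lay above the RORγt KO arrays by 0.15 (interval -0.04 to 0.33, adjusted p = 0.569), as did those of Fdft1 and as 7.79% of all genes did, and the WT arrays spanned both. Hsd17b7, which encodes a sterol ketone reductase, lay at 8.07, 8.07 and 8.04 in SRG3 cKO arrays, 8.07, 7.87 and 8.03 in RORγt KO arrays and 8.17, 8.40 and 8.09 in WT arrays. It was the only enzyme of the 16 with every array of a knockout below every WT array, which 7.35% of all genes met in RORγt KO cells. Its differences were -0.16 (SE 0.08, adjusted p = 0.48) in SRG3 cKO and -0.23 (SE 0.08, adjusted p = 0.255) in RORγt KO, neither past the threshold. Nsdhl, for a sterol dehydrogenase, lay at 10.29, 10.32 and 10.16 in SRG3 cKO arrays, 10.16, 10.13 and 10.05 in RORγt KO arrays and 10.15, 10.22 and 10.04 in WT arrays, with overlap throughout. The other 9 enzymes lay between -0.14 and 0.14 in both comparisons with WT.

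Within the WT group the synthesis genes differed more between arrays than in the knockouts. WT array 2 held the highest of the 3 WT values for 13 of the 16 enzymes, against 29.3% of all genes, and the highest of all 9 values for 9 of the 16, against 12.2% of all genes. This was not particular to sterol synthesis. WT array 2 held the highest of all 9 values for 4 of the 7 fatty acid synthesis genes, 2 of the 5 regulators and 1 of the 7 uptake and efflux genes. The median SD of the 16 genes was 0.07 in SRG3 cKO, 0.05 in RORγt KO and 0.13 in WT arrays, while over all genes it was 0.06 in each group. Averaged over the 16 genes as a difference from the WT mean, the SRG3 cKO arrays lay at 0.05, 0.03 and -0.02, the RORγt KO arrays at -0.03, -0.02 and -0.04, and the WT arrays at -0.04, 0.11 and -0.07. Without WT array 2 the median change of the group in SRG3 cKO cells was 0.10 in place of 0.01. In the WT arrays the fatty acid synthesis genes averaged 0.01, 0.08 and -0.08 from the WT mean. There the 5 B cell markers averaged 0.01, 0.14 and -0.16, and the T cell markers 0.05, -0.05 and 0.00. These observations were made after the values were seen.

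**Figure D2:**
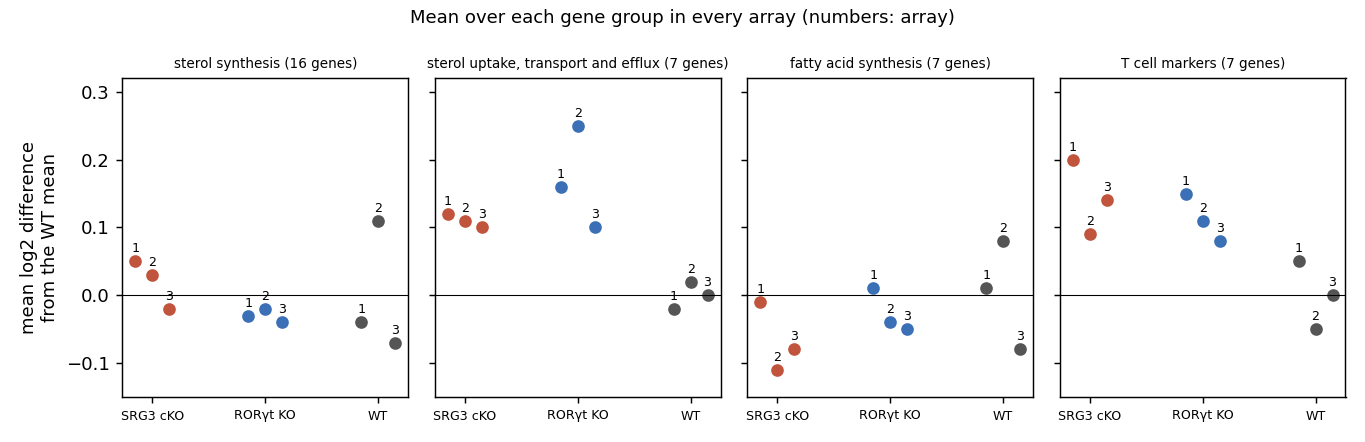
Mean log2 difference from the WT mean over the genes of each group, per array (points, numbered by array), for SRG3 cKO, RORγt KO and WT. For sterol synthesis WT array 2 lies at 0.11, above all other arrays; for uptake, transport and efflux all knockout arrays (0.10 to 0.25) lie above the WT arrays (-0.02 to 0.02), as they do for the T cell markers.

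None of the 5 regulators passed in any of the 3 comparisons, and none had an unadjusted p below 0.05, against 11.1% to 12.7% of all genes. Srebf1, for the SREBP that favours fatty acid genes, lay at 9.09, 9.09 and 9.13 in SRG3 cKO arrays, 9.09, 9.05 and 9.19 in RORγt KO arrays and 9.09, 9.09 and 9.09 in WT arrays. Srebf2, for the SREBP that favours cholesterol genes, lay at 10.74, 10.51 and 10.58 in SRG3 cKO arrays, 10.65, 10.61 and 10.55 in RORγt KO arrays and 10.64, 10.56 and 10.55 in WT arrays. For both genes the groups overlapped and the intervals against WT stayed within -0.11 to 0.16. Insig1, an SREBP target that retains SCAP, lay at 10.30, 10.42 and 10.30 in SRG3 cKO arrays, 10.40, 10.49 and 10.39 in RORγt KO arrays and 10.38, 10.73 and 10.44 in WT arrays. WT array 2 was again the highest, and the differences were -0.18 in SRG3 cKO (interval -0.36 to 0.01) and -0.09 in RORγt KO (interval -0.27 to 0.09). Scap lay at 9.58, 9.56 and 9.50 in SRG3 cKO arrays, 9.58, 9.44 and 9.49 in RORγt KO arrays and 9.56, 9.65 and 9.57 in WT arrays, with overlap in both comparisons. Insig2, for the second INSIG protein, differed from WT by 0.02 in SRG3 cKO and 0.00 in RORγt KO on the log2 scale.

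Among the uptake, transport and efflux genes Npc2 rose in both knockouts. NPC2 hands cholesterol released from lipoproteins to NPC1 in the lysosomal membrane. Npc2 lay at 10.80, 10.73 and 10.82 in SRG3 cKO arrays, 10.83, 10.95 and 10.79 in RORγt KO arrays and 10.44, 10.49 and 10.48 in WT arrays. All knockout arrays were above all WT arrays. With 3 arrays per group, limma gave a rise of 1.24-fold in SRG3 cKO (a log2 difference of 0.31 with an SE of 0.05, adjusted p = 0.0313) and 1.31-fold in RORγt KO cells (0.39, SE 0.05, adjusted p = 0.0102). Between the knockouts the difference was -0.08 (interval -0.18 to 0.03, adjusted p = 0.628). In RORγt KO cells Npc2 passed whichever array was left out. In SRG3 cKO cells it passed only without RORγt KO array 2 or 3, and without any of the other 7 arrays the adjusted p was 0.0671 to 0.132 with a change of 0.29 to 0.34.

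The other 6 genes of this group did not pass. Npc1, for the membrane partner of NPC2, lay at 9.01, 8.83 and 8.83 in SRG3 cKO arrays, 9.11, 9.0 and 8.85 in RORγt KO arrays and 8.83, 8.69 and 8.68 in WT arrays. RORγt KO arrays lay above WT arrays by 0.25 (SE 0.08, adjusted p = 0.211) and SRG3 cKO arrays were at 0.15 (interval -0.02 to 0.32). A second Npc1 probe set, at a mean of 6.19, gave -0.02 in either comparison. Abca1, the cholesterol efflux pump gene, lay at 8.36, 8.61 and 8.49 in SRG3 cKO arrays, 8.49, 9.07 and 8.57 in RORγt KO arrays and 8.23, 8.36 and 8.37 in WT arrays. Its RORγt KO arrays were all above the WT arrays, and a single array, RORγt KO array 2, was far above the rest (0.39, SE 0.13, adjusted p = 0.266), while SRG3 cKO arrays overlapped WT at 0.16 (interval -0.13 to 0.46).

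Abcg1, for the pump that loads cholesterol onto high-density lipoprotein, lay at 8.63, 8.76 and 8.63 in SRG3 cKO arrays, 8.60, 8.62 and 8.56 in RORγt KO arrays and 8.54, 8.46 and 8.54 in WT arrays. The order of the groups was without overlap, with changes of 0.16 in SRG3 cKO (SE 0.05, adjusted p = 0.222) and 0.08 in RORγt KO (adjusted p = 0.515). Ch25h, which encodes the enzyme that makes an oxysterol from cholesterol, lay at 6.66, 6.52 and 6.57 in SRG3 cKO arrays, 6.80, 6.66 and 6.60 in RORγt KO arrays and 6.66, 6.73 and 6.83 in WT arrays. These levels are below the median of all values (7.13), the groups overlapped, and a second, dimmer Ch25h probe set gave 0.08 in SRG3 cKO where the first gave -0.16. Stard4, a cytosolic sterol carrier gene, was at 0.12 and 0.13, and Cyp27a1, for a sterol hydroxylase, at 0.02 and 0.00, in SRG3 cKO and RORγt KO.

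As a group, 6 of the 7 lay above 0 in SRG3 cKO (median log2 change 0.15) and 6 of 7 in RORγt KO (median 0.13), with the WT arrays shared. In SRG3 cKO 2 of the 7 had arrays all above WT, against 7.04% of all genes, and in RORγt KO 4 of the 7, against 6.9%. Averaged over the 7 genes, the difference from the WT mean was 0.12, 0.11 and 0.10 in SRG3 cKO arrays, 0.16, 0.25 and 0.10 in RORγt KO arrays and -0.02, 0.02 and 0.00 in WT arrays. The 7 T cell markers moved with it: their mean difference was 0.20, 0.09 and 0.14 in SRG3 cKO arrays, 0.15, 0.11 and 0.08 in RORγt KO arrays and 0.05, -0.05 and 0.00 in WT arrays, with none past the threshold in either comparison (3 and 2 by unadjusted p below 0.05, against 11.2% and 12.7% of all genes). Their part in the result was not tested. In cultures of this kind, fewer cells of a type and less RNA per cell cannot be told apart.

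**Figure D3:**
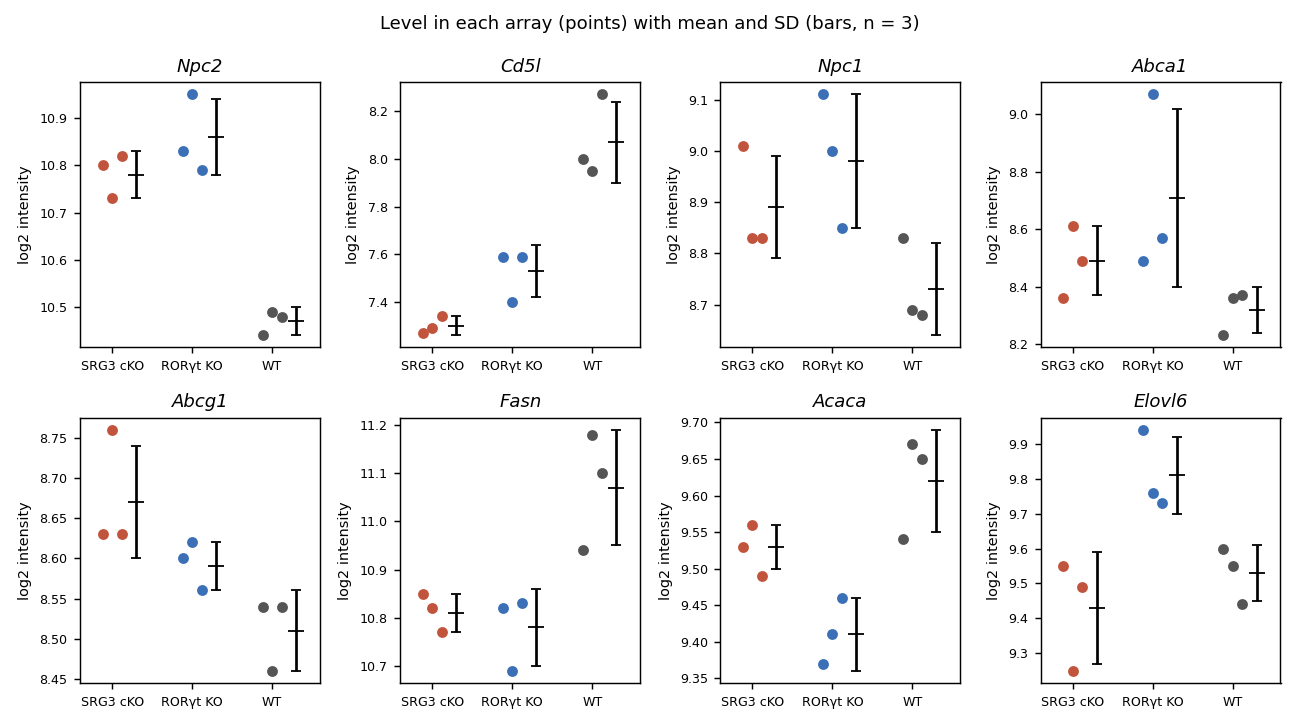
Log2 intensity of 8 genes in each SRG3 cKO, RORγt KO and WT array (points), with the mean and SD of each group (bars, n = 3). Npc2 separates both knockouts from WT upward and Cd5l downward; Elovl6 is highest in RORγt KO; the vertical axes start at different levels.

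Cd5l had the largest change of the 36 genes in both comparisons with WT. CD5L is a secreted scavenger receptor protein that binds fatty acid synthase in fat cells and, in mouse Th17 cells, restrains inflammatory function; macrophages are its main source. Cd5l lay at 7.27, 7.29 and 7.34 in SRG3 cKO arrays, 7.59, 7.40 and 7.59 in RORγt KO arrays and 8.0, 7.95 and 8.27 in WT arrays. The 3 groups did not overlap, with SRG3 cKO lowest and WT highest. By limma it fell 1.71-fold in SRG3 cKO (a log2 difference of -0.77 with an SE of 0.08, adjusted p = 0.00614) and 1.46-fold in RORγt KO cells (-0.54, SE 0.08, adjusted p = 0.0212). The direct difference of SRG3 cKO from RORγt KO, -0.23 (interval -0.42 to -0.04), did not pass (adjusted p = 0.338). In SRG3 cKO the call was lost without SRG3 cKO array 1 (-0.76, adjusted p = 0.0538). In RORγt KO it was lost without WT array 2 (-0.60, adjusted p = 0.0504), RORγt KO array 1 (-0.58, 0.0688) or RORγt KO array 2 (-0.48, 0.0935).

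Of 12 markers of macrophages and other myeloid cells, none passed in any comparison, and 0 and 1 had an unadjusted p below 0.05 in SRG3 cKO and RORγt KO. Their mean level was 6.69 to 6.74 in SRG3 cKO arrays, 6.70 to 6.74 in RORγt KO arrays and 6.70 to 6.72 in WT arrays. These means are below the median of all values (7.13), but single markers lay on both sides of it, from 5.195 (Vsig4) to 7.682 (Fcgr3). Levels of different genes are not comparable, so whether macrophage RNA was present cannot be read from these means. The cells that Cd5l RNA came from were not tested. None of 5 B cell markers or 6 markers of CD8 T and NK cells passed against WT either. At an unadjusted p below 0.05 were 0 and 0 of the B cell markers and 1 and 0 of the CD8 T and NK markers in SRG3 cKO and RORγt KO. Among all genes 11.2% and 12.7% had an unadjusted p below 0.05 in these comparisons. The mean of the 7 Th17 markers was lower with Cd5l, at -0.63, -0.64 and -0.53 from the WT mean in SRG3 cKO arrays, -1.47, -1.45 and -1.64 in RORγt KO arrays and 0.04, -0.12 and 0.08 in WT arrays. Of these Th17 markers 4 fell in SRG3 cKO, where 0.243% of all genes fell. In RORγt KO 6 fell and 1 rose, against 0.343% and 0.694% of all genes. Among the fallers in both knockouts was Il22, whose mean level of 3.366 had 0.6% of probe sets below it. The riser, Rora, had a limma adjusted p that rounds to 0.05. The mean of the Th17 markers was lowest in RORγt KO arrays. Cd5l was lowest in SRG3 cKO arrays, by a difference from RORγt KO that did not pass (-0.23, limma adjusted p = 0.338). Any relation of Cd5l to these markers was not tested.

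No gene of fatty acid synthesis passed in any comparison, although 1 of the 7 had an unadjusted p below 0.05 in SRG3 cKO cells, 3 in RORγt KO cells and 2 between the knockouts, against 11.2%, 12.7% and 11.1% of all genes. The group median was -0.08 in SRG3 cKO and -0.05 in RORγt KO. Fasn, for fatty acid synthase, lay at 10.85, 10.82 and 10.77 in SRG3 cKO arrays, 10.82, 10.69 and 10.83 in RORγt KO arrays and 10.94, 11.18 and 11.10 in WT arrays. All knockout arrays lay below all WT arrays, which are shared. Against WT, all arrays were lower for 6.56% of all genes in SRG3 cKO and for 7.35% in RORγt KO. The differences were -0.26 in SRG3 cKO (SE 0.07, limma adjusted p = 0.157) and -0.29 in RORγt KO (SE 0.07, adjusted p = 0.083), and without WT array 1 the second was -0.36 with an adjusted p = 0.0296.

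Acaca, which encodes the acetyl-CoA carboxylase that supplies fatty acid synthase, lay at 9.53, 9.56 and 9.49 in SRG3 cKO arrays, 9.37, 9.41 and 9.46 in RORγt KO arrays and 9.54, 9.67 and 9.65 in WT arrays. RORγt KO arrays lay below the arrays of both other groups, at -0.20 against WT (SE 0.05, adjusted p = 0.0891, or -0.24 and 0.0415 without WT array 1). Of all genes, 7.35% had all RORγt KO arrays below all WT arrays, and 7.79% had them below all SRG3 cKO arrays. SRG3 cKO arrays overlapped WT arrays at -0.09 (interval -0.19 to 0.02), and the difference of SRG3 cKO from RORγt KO was 0.12 (adjusted p = 0.385). Elovl6, for the elongase of saturated fatty acids, lay at 9.55, 9.25 and 9.49 in SRG3 cKO arrays, 9.94, 9.76 and 9.73 in RORγt KO arrays and 9.60, 9.55 and 9.44 in WT arrays. RORγt KO arrays were above all others. Of all genes, 6.9% had all RORγt KO arrays above all WT arrays, and 6.82% had all SRG3 cKO arrays below all RORγt KO arrays. The difference was 0.28 for RORγt KO against WT (SE 0.08, adjusted p = 0.206), -0.10 for SRG3 cKO against WT (interval -0.29 to 0.09) and -0.38 for SRG3 cKO against RORγt KO (SE 0.08, adjusted p = 0.0755). The Elovl6 difference between the knockouts did not pass in this fit and passed with array weights (-0.42, adjusted p = 0.0465).

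Scd1, for the desaturase that makes oleate, lay at 9.79, 9.76 and 9.79 in SRG3 cKO arrays, 9.81, 9.85 and 9.78 in RORγt KO arrays and 9.82, 10.06 and 9.41 in WT arrays. The knockout arrays lay inside the wide span of the WT arrays, and the intervals were -0.27 to 0.30 in SRG3 cKO and -0.23 to 0.33 in RORγt KO. Acly, for the enzyme that makes cytosolic acetyl-CoA, was at 0.08 in SRG3 cKO and 0.06 in RORγt KO. The desaturase genes Fads1, at -0.02 and -0.05, and Fads2, at -0.08 and -0.06, did not pass either.

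**Figure D4:**
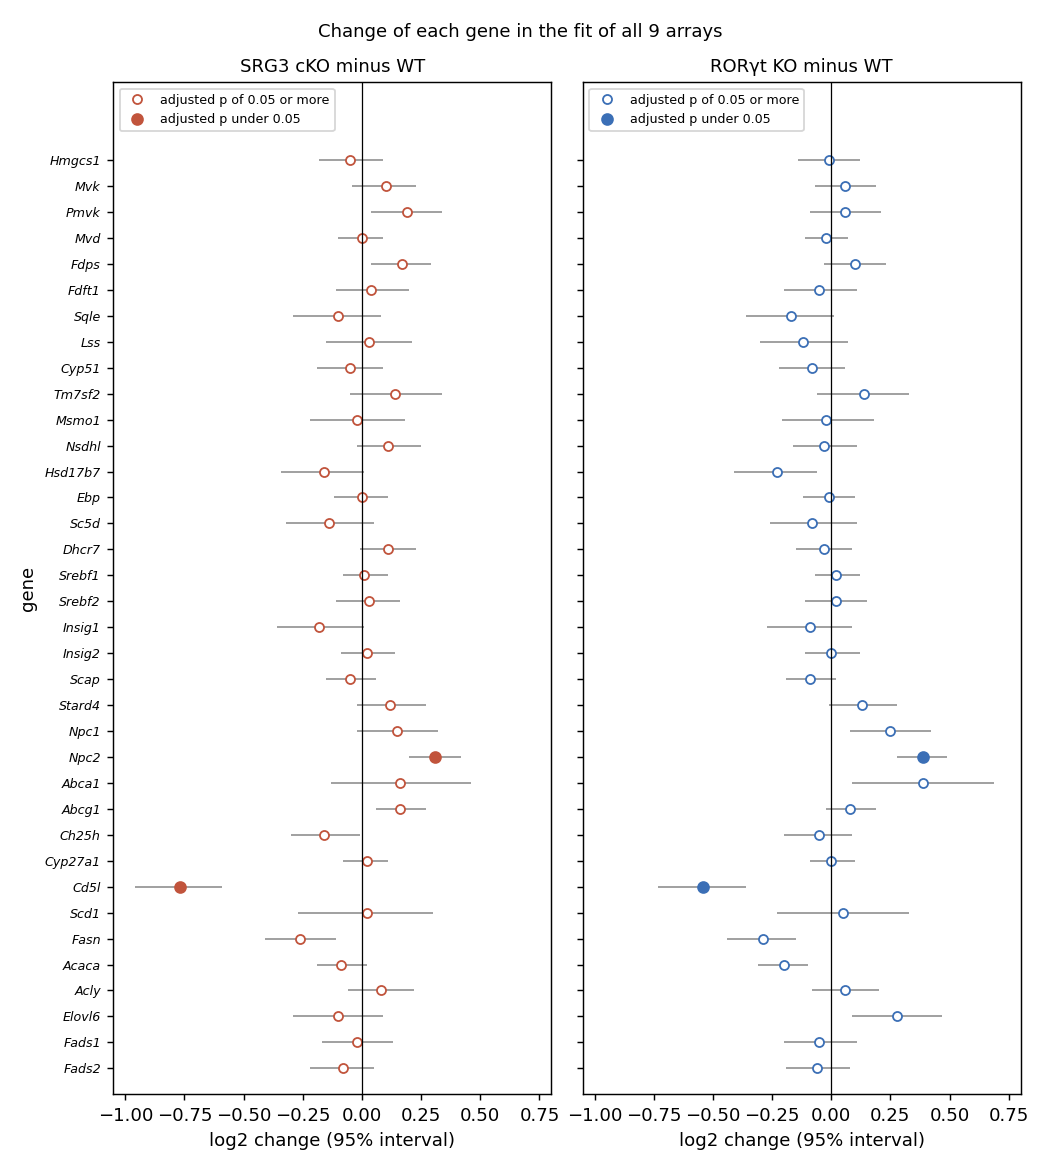
Log2 change of each of the 36 genes (rows) in SRG3 cKO against WT (left) and RORγt KO against WT (right), with 95% intervals; filled points passed the threshold. Only Npc2 and Cd5l are filled in either panel, and most other intervals include 0.

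Other genes of these pathways, outside the set, were read from lists of symbols. Among all genes, 0.523% changed in SRG3 cKO, 1.04% in RORγt KO and 1.28% between the knockouts, and 11.2%, 12.7% and 11.1% had an unadjusted p below 0.05. Of 35 genes on a list of further sterol genes, 1 rose in SRG3 cKO, none changed in RORγt KO and the same 1 was higher in SRG3 cKO than in RORγt KO. That gene, Acat1, encodes a mitochondrial thiolase described below and is not among the enzymes of the sterol synthesis group. By unadjusted p below 0.05 there were 3, 6 and 4 of the 35, and the median change was 0.01, -0.01 and 0.03. Of 44 further fatty acid and lipid storage genes none changed by limma in the 3 comparisons, with 10, 7 and 4 by unadjusted p below 0.05 and medians of 0.02, 0.01 and -0.01. Of 26 fatty acid oxidation genes 1 rose in SRG3 cKO and none changed in RORγt KO, while between the knockouts 1 was higher and 1 lower in SRG3 cKO. By unadjusted p below 0.05 there were 4, 4 and 9 of the 26, with medians of -0.01, 0.01 and -0.03.

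The first riser, Acat1, encodes the mitochondrial acetoacetyl-CoA thiolase of ketone body and isoleucine metabolism. It lay at 10.71, 10.62 and 10.60 in SRG3 cKO arrays, 10.32, 10.32 and 10.24 in RORγt KO arrays and 10.40, 10.41 and 10.35 in WT arrays. SRG3 cKO arrays were above all others, by 0.25 against WT (SE 0.04, limma adjusted p = 0.0481) and 0.35 against RORγt KO (SE 0.04, adjusted p = 0.00519). The second, Eci2, for an isomerase used in oxidizing unsaturated fatty acids, lay at 8.69, 8.66 and 8.66 in SRG3 cKO arrays, 8.44, 8.36 and 8.45 in RORγt KO arrays and 8.48, 8.42 and 8.44 in WT arrays. It was higher in SRG3 cKO by 0.22 against WT (SE 0.04, adjusted p = 0.0451) and 0.25 against RORγt KO (SE 0.04, adjusted p = 0.0129). Against WT, Acat1 passed in none of the 9 fits that left out 1 array (adjusted p = 0.0693 to 0.19) and Eci2 in 1 of them, that without RORγt KO array 2. Both calls against WT were also lost with quantile normalization (adjusted p = 0.0652 for Acat1 and 0.0996 for Eci2), with all probe sets tested (0.139 and 0.123) and with only 2 groups in the fit (0.134 and 0.115), and that of Acat1 with array weights (0.0515).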

How the data were processed

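RNA of 9 Th17 cultures (3 each from SRG3 cKO, RORγt KO and WT cells) was read on expression microarrays that list 41345 probe sets. The values used are log2 probe set intensities as deposited by the authors; background correction, summarization and normalization are not given in the sources used here. Columns of samples outside the design numbered 0. A single gene symbol was given for 23521 probe sets, several for 1814 and none for 16010. The RefSeq annotation of GRCm38.p6 supplied current symbols where the gene ID was found (23328 probe sets), and the highest-mean probe set was taken for the 1082 genes with several, giving 22180 genes. Tests used limma 3.58.1 (R 4.3.3) with Benjamini-Hochberg adjustment within each comparison and a threshold of 0.05. Deviations of arrays with the same replicate number correlated at 0.287, 0.186 and 0.116 for SRG3 cKO and WT, and those with different numbers at -0.234 to 0.0772. The 2 groups were taken as paired by these values, though the labels state no pairing. The reported values come from the fit without a block, and the block was added to a fit of all 9 arrays. In RORγt KO and WT the second pair was at -0.00527, and these were not taken as paired.

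The genes and lists were chosen with earlier results of these data known. Genes given by array were those with an adjusted p under 0.05 or an unadjusted p under 0.01 in any comparison, the 2 with the largest change per group and comparison, and a set of regulators and enzymes; other pathway genes are named where they passed. The procedure was tested on simulated data. Alternatives covered normalization, centring, dim genes, probe sets, weighting of arrays, the variance model, fits of only 2 groups, a replicate block and the omission of each array in turn. Proteins were not compared, as no protein sequences were used here.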

Additional observations from a re-analysis of the deposited data

Results flagged for a closer look

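For 3 genes of the wider pathway lists the direct comparison of SRG3 cKO with RORγt KO cells passed the threshold, so the changes of the knockouts against the shared WT arrays differed. Acat1 was higher in SRG3 cKO by 0.35 (SE 0.04, limma adjusted p = 0.00519), from 0.25 in SRG3 cKO and -0.10 in RORγt KO against WT. Eci2 was higher in SRG3 cKO by 0.25 (SE 0.04, adjusted p = 0.0129), from 0.22 in SRG3 cKO and -0.03 in RORγt KO against WT. Acadm, which encodes the medium-chain acyl-CoA dehydrogenase of fatty acid oxidation, lay at 9.20, 9.09 and 9.06 in SRG3 cKO arrays, 9.40, 9.34 and 9.34 in RORγt KO arrays and 9.16, 9.18 and 9.20 in WT arrays. It was lower in SRG3 cKO than in RORγt KO (log2 change -0.25, SE 0.04, adjusted p = 0.0272), from -0.06 in SRG3 cKO and 0.18 in RORγt KO against WT. The Acadm call was lost without WT array 2, SRG3 cKO array 2 or 3, or any of the RORγt KO arrays (adjusted p = 0.0533 to 0.118), and the Eci2 call without SRG3 cKO array 1 (0.0556). None of the 36 genes of the set met this criterion. Groups of 3 arrays are too small for a test of outlying arrays.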

How the results depend on the processing

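Under no alternative did a called change turn its sign; of changes past the threshold neither as reported nor under the alternative, 21 values crossed 0. Testing all probe sets gave 48 changed probe sets for SRG3 cKO and 128 for RORγt KO against WT, with 1 gene of the set called in each, in place of 116, 230 and 2 each; Npc2 then had an adjusted p = 0.0954 in SRG3 cKO and Cd5l 0.0612 in RORγt KO. Fitting the 6 arrays of 2 groups gave 13, 43 and, between the knockouts, 142 in place of 283, with 0 genes of the set called in each comparison; Cd5l then had an adjusted p = 0.0513 in SRG3 cKO and 0.115 in RORγt KO, and Npc2 0.0701 and 0.0589. With the replicate block 195 and 374 genes changed against WT, Npc1 also passed in RORγt KO (adjusted p = 0.0331), and 1 gene, Elovl6, passed between the knockouts (0.0301), as 1, Elovl6, did with array weights (0.0465); the block changed no other call of the set. Leaving out each array gave 18 to 87, 45 to 322 and 138 to 261 changed genes for SRG3 cKO and RORγt KO against WT and between the knockouts, with 0 to 2, 1 to 4 and 0 to 0 of the set. The median change of the sterol synthesis genes was then -0.02 to 0.10, -0.07 to 0.02 and 0.04 to 0.06, and that of the fatty acid synthesis genes -0.14 to -0.01, -0.11 to 0.00 and -0.02 to 0.04. Some of the alternatives also had fewer arrays or more tests, and the cause of these differences was not tested. The number of arrays, 3 per group, limits the precision of every value.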
